A study of Mus musculus with 6 samples.

Results

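RNA sequencing of C2C12 cells was examined for the genes that write and erase methyl groups on histone lysines, apart from *Phf2* and the rest of its KDM7 family. The set was a list of 48 gene symbols looked up in the deposited count matrix of 55401 genes, with 17 demethylases and 31 methyltransferases or subunits of their complexes, grouped by the residue they act on. All 48 symbols were found, each on a single row, and all 48 passed the filter on low counts. C2C12 is a mouse myoblast line whose cells leave the cell cycle and fuse into myotubes in low-serum medium, and polyadenylated RNA was sequenced at 2 d post differentiation. The 3 *Phf2* KO libraries came from cells given a pool of 4 plasmids with guide RNAs against *Phf2*, and the 3 control libraries, labelled wild type, came from mock cells whose plasmid carried Cas9, ZsGreen and a guide with no match in mouse. Both were pools sorted for ZsGreen, and the replicates were wells of 1 experiment. The p-values therefore measure the spread between wells, and an effect of *Phf2* and a difference between the pools cannot be told apart.

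Methyl groups are placed on histone lysines by SET-domain enzymes and by DOT1L, which has another fold, and are removed by the LSD1 and JmjC families. Methylation of H3K4, H3K36 and H3K79 is found at active genes, whereas methylation of H3K9, H3K27 and H4K20 marks repressed or compacted chromatin. PHF2 is a JmjC protein that acts on H3K9me2, so the other H3K9 enzymes share its target residue. In muscle cells, SUV39H1, G9a (*Ehmt2*) and EZH2 are known to restrain differentiation, and LSD1 (*Kdm1a*) and UTX (*Kdm6a*) to promote it.

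The targeted gene was checked first. Levels are given in CPM, the estimated counts of a gene scaled to a common library size with TMM factors, and ± marks the SD of 3 libraries throughout. *Phf2* was 102.4, 95.5 and 104.6 CPM in control cells and 41.1, 37.6 and 38.6 CPM in *Phf2* KO cells, and its log2 fold change was -1.37 with an adjusted p of 8.32e-09 (edgeR quasi-likelihood). Library totals lay between 52526109 and 67502788 estimated counts. All 8 listed markers of skeletal muscle were expressed. The lists for adipocytes, osteoblasts, leukocytes, endothelium and epithelium, 4 genes each, summed to at most 3.49 TPM (a level per transcript length, scaled within the library) in any library.

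Few of the enzyme genes differed between the groups. Of the 48 members, 4 had an adjusted p under 0.05 in the quasi-likelihood fit (8.33%, against 6.48% of all 17310 genes tested). Leaving out 1 library at a time gave 2, 1 and 3 members without control replicates 1, 2 and 3, and 4, 2 and 2 without *Phf2* KO replicates 1, 2 and 3, while 4.29%, 2.62%, 5.8%, 4.97%, 3.22% and 3.44% of all genes passed in those fits. *Kdm5b*, *Kdm6a* and *Kmt2c* were higher in *Phf2* KO cells, as were 3.22% of all genes, and *Smyd1* was lower, as were 3.26% of all genes. At an unadjusted p under 0.05 the count was 11, against 19.4% of all genes. In CPM, the 3 libraries of one group did not overlap those of the other for 13 members (27.1%), against 25.1% of all genes. These shares were near the background. The median log2 fold change was 0.02 for the members and -0.001 for all genes, with 30 members above 0 and 18 below. The highest ratio of *Phf2* KO to control was 1.19 and the lowest 0.779. For 41 members the 95% interval of the log2 fold change lay between -0.32 and 0.32 (85.4%, against 41.6% of all genes), and 45 of the 48 members stood above the median gene in mean CPM.

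**Figure D1:**
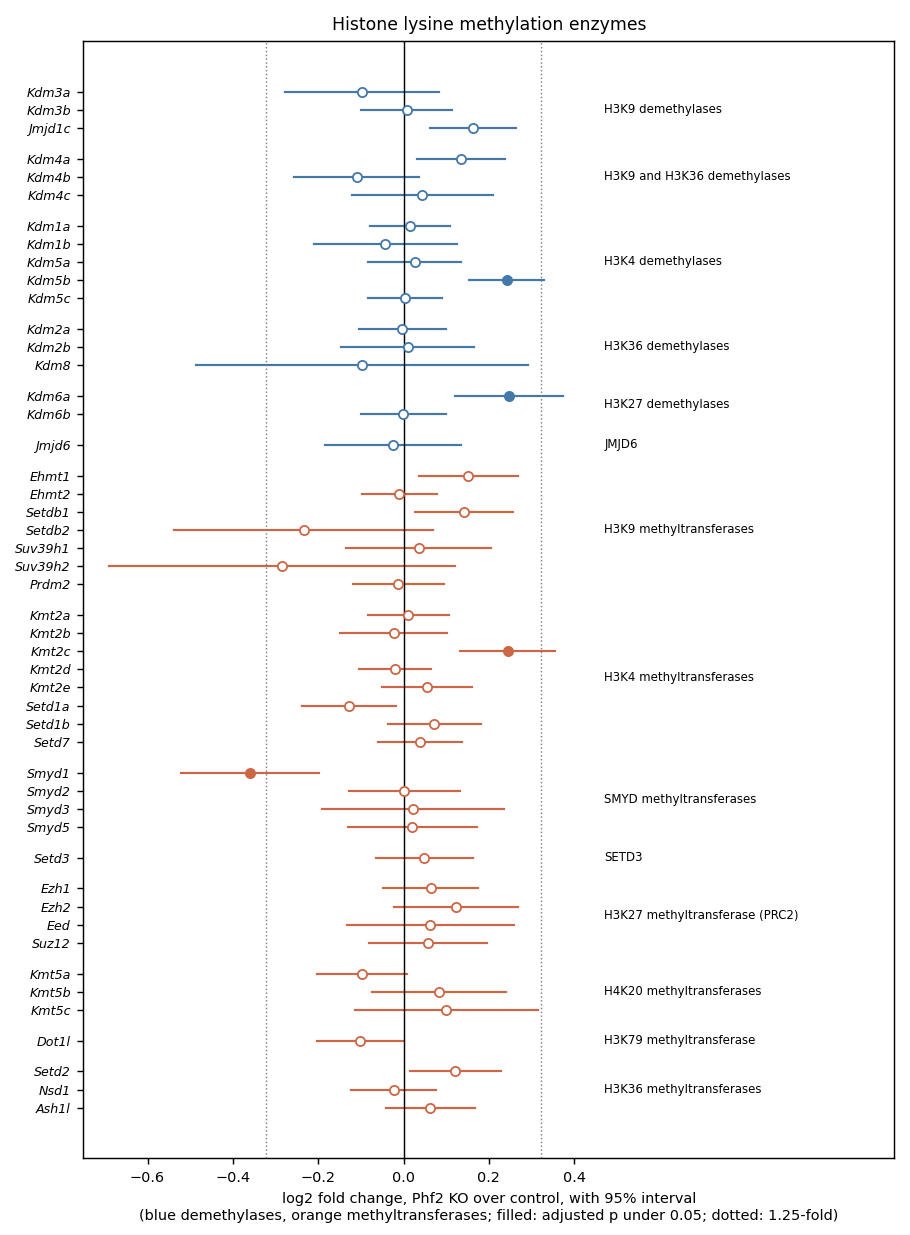
Log2 fold change of each of the 48 genes in *Phf2* KO over control cells (x axis), with its 95% interval, grouped by target residue (y axis); demethylases are blue, methyltransferases orange, filled points have an adjusted p under 0.05, and dotted lines stand at -0.32 and 0.32. Most points lie near 0, the 4 filled ones are *Kdm5b*, *Kdm6a*, *Kmt2c* and *Smyd1*, and the widest intervals belong to *Suv39h2*, *Kdm8* and *Setdb2*.

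The promoters of the 4 genes past the threshold are shown because their base composition differs. Each line gives 300 bases of RefSeq (GRCm38.p6), from 250 before to 50 after the annotated start, 5′ to 3′ on the strand of the gene, with CG dinucleotides in capitals.
*Kdm5b*, plus strand, chr1:134559928-134560227: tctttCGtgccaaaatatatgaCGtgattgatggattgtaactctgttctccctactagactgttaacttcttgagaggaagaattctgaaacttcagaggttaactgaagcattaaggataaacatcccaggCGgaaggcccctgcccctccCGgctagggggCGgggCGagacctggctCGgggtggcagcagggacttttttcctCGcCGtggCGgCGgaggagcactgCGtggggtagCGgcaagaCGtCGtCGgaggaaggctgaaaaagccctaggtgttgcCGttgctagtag
*Kdm6a*, plus strand, chrX:18162325-18162624: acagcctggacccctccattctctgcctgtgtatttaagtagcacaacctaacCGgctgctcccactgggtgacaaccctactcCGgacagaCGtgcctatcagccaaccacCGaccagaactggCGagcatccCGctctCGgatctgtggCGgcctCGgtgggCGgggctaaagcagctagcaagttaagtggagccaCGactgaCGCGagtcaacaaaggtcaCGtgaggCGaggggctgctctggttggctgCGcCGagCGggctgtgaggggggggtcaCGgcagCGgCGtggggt
*Kmt2c*, minus strand, chr5:25498734-25499033: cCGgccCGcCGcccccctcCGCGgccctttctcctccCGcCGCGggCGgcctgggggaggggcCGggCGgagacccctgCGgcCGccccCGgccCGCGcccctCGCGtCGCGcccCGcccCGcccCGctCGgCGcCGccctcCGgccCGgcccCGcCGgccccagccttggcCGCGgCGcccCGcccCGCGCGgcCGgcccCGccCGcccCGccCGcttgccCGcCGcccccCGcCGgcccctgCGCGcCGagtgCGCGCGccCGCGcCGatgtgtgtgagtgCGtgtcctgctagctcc
*Smyd1*, minus strand, chr6:71262232-71262531: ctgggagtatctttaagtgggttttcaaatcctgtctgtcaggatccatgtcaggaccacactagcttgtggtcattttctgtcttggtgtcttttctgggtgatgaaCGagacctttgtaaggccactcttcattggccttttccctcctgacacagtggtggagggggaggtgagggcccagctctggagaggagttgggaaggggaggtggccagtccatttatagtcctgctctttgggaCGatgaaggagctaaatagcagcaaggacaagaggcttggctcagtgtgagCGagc
The window of *Smyd1* held 3 CG dinucleotides, and those of *Kdm5b*, *Kdm6a* and *Kmt2c* held 17, 21 and 56. The *Smyd1* window lies inside the gene bounds given below and not at their upstream end, so a start there is not covered. RefSeq promoters were matched for 36 of the 48 members. Taking for each gene its window richest in CG, *Smyd1* had the lowest number of the 36, the next lowest being 13, and *Kmt2c* the highest. Over single windows, the median was 28 for the 49 windows of the members and 7 for all 32851 promoters of this length. The letters CANNTG, the E-box of bHLH factors, the myogenic ones among them, read the same pattern on both strands and include CAGCTG. They are in 72.3% of all promoters, and here they were in the window of *Kdm6a* but not in those of *Kdm5b*, *Kmt2c* and *Smyd1*. The 1 match in *Kdm6a* reads CACGTG, and CAGCTG was in none of the 4 windows.

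Among the demethylases of H3K4, the LSD1 enzymes *Kdm1a* and *Kdm1b* use FAD and the KDM5 family has a JmjC domain. *Kdm5b* (ENSMUSG00000042207, chromosome 1, 134560171 to 134635285, mm10), which acts on H3K4me3, was 119, 118 and 122 CPM in the control libraries and 143, 140.4 and 141 CPM in the *Phf2* KO libraries. Every *Phf2* KO library was above every control, and libraries of a group lay close together. The means were 119.6 ± 2.28 and 141 ± 1.34 CPM, and the log2 fold change was 0.24 with an SE of 0.041 (quasi-likelihood, adjusted p = 0.00289). *Kdm5b* passed without any 1 of the libraries, at adjusted p-values up to 0.032 in edgeR. The other 4 genes did not pass, with log2 fold changes from -0.04 for *Kdm1b* to 0.03 for *Kdm5a*. *Kdm5c* was 219 ± 1.19 and 219.9 ± 2.86 CPM, with a 95% interval of -0.08 to 0.09 on the log2 scale. *Kdm1a* was 110.5, 112 and 109 CPM in control and 109, 116 and 110.1 CPM in *Phf2* KO libraries, and its groups overlapped.

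*Kdm6a* (ENSMUSG00000037369, chromosome X, 18162575 to 18279936) encodes UTX, a demethylase of H3K27me3 that is also a subunit of the KMT2C and KMT2D complexes. It was 49.3, 45 and 45.2 CPM in control libraries and 53.1, 54.9 and 57.5 CPM in *Phf2* KO libraries. The groups did not overlap in CPM, and control replicate 1 lay nearest to the *Phf2* KO libraries. In TPM they overlapped, at 20, 13.2 and 14.7 in control and 19.5, 17 and 20.2 in *Phf2* KO libraries. The means were 46.5 ± 2.43 and 55.2 ± 2.17 CPM, giving a log2 fold change of 0.25, SE 0.059, with an adjusted p of 0.0219 (quasi-likelihood). In edgeR this call was lost without control replicate 2 (adjusted p 0.111), control replicate 3 (0.0627), *Phf2* KO replicate 2 (0.0765) or *Phf2* KO replicate 3 (0.0928). *Kdm6b*, which encodes the other H3K27 demethylase JMJD3, was 170.4 ± 2.12 and 170.3 ± 7.9 CPM, a 95% interval of -0.10 to 0.10 on the log2 scale.

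Of the 8 H3K4 methyltransferases, *Kmt2c* (ENSMUSG00000038056, chromosome 5, 25271798 to 25498783), whose product places H3K4me1 at enhancers, was 83.2, 88.8 and 90.8 CPM in control libraries and 99.7, 102 and 109.9 CPM in *Phf2* KO libraries. All 3 *Phf2* KO libraries were above the controls. The means were 87.6 ± 3.94 and 104 ± 5.39 CPM, a log2 fold change of 0.24 whose SE was 0.052 (quasi-likelihood, adjusted p = 0.0119). In edgeR the call was lost without control replicate 1 (adjusted p 0.0666), control replicate 2 (0.0597) or *Phf2* KO replicate 3 (0.065). *Kmt2d*, its closest paralog, was 301, 299.9 and 295 CPM in control and 288, 297 and 298 CPM in *Phf2* KO libraries, with a 95% interval of -0.11 to 0.06 on the log2 scale; the difference between the paralogs was not tested. *Kmt2a* and *Kmt2b*, which encode MLL1 and MLL2, had log2 fold changes of 0.01 and -0.02. *Kmt2e*, whose product is thought to lack methyltransferase activity, *Setd1b* and *Setd7* had values of 0.06, 0.07 and 0.04. *Setd1a* was lower in every *Phf2* KO library, at 68.4 ± 0.443 and 62.6 ± 2.99 CPM, without passing (quasi-likelihood, adjusted p = 0.183). Its exons share 51.8% of their length with the annotated gene *Gm49388* on the same strand, so its count is uncertain.

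*Smyd1* (ENSMUSG00000055027, chromosome 6, 71213940 to 71322233) is the muscle-specific member of the SMYD family and is needed to assemble sarcomeres. It was 48.6, 48.6 and 40.3 CPM in control libraries and 36.3, 34.1 and 36.8 CPM in *Phf2* KO libraries. Control replicate 3 lay below the other controls and still above each *Phf2* KO library. The means were 45.8 ± 4.78 and 35.7 ± 1.4 CPM, and the log2 fold change of -0.36 had an SE of 0.075 (quasi-likelihood, adjusted p = 0.0108). In edgeR the call was lost without control replicate 1 (adjusted p 0.0503), control replicate 2 (0.0791) or *Phf2* KO replicate 2 (0.0671). The muscle markers moved with it: *Des*, *Myod1*, *Myog*, *Myh3*, *Ckm*, *Acta1*, *Tnnt3* and *Mymk* were lower in CPM in all *Phf2* KO libraries. Groups did not overlap, in either direction, for 25.1% of all genes. Of the 8 markers 5 passed, while 3.26% of all genes passed as lower, and their log2 fold changes had a median of -0.37. With the replicate block 6 passed, *Acta1* being added, and 7 passed in exactTest and 8 in DESeq2. Their summed level was 6487 to 8234 TPM in control and 5309 to 5910.3 TPM in *Phf2* KO libraries. Within this sum *Tnnt3* moved apart from its counts, at 898, 883 and 244 TPM in control and 333, 259 and 373 TPM in *Phf2* KO libraries. The part of the fall in muscle markers in the result for *Smyd1* was not tested. In bulk RNA, fewer cells of a type and less RNA per cell cannot be told apart. *Smyd2*, *Smyd3* and *Smyd5*, its broadly expressed relatives, had log2 fold changes of 0.002, 0.02 and 0.02. *Setd3*, whose product methylates a histidine of actin, was 78 ± 3.3 and 80.6 ± 4.03 CPM.

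**Figure D2:**
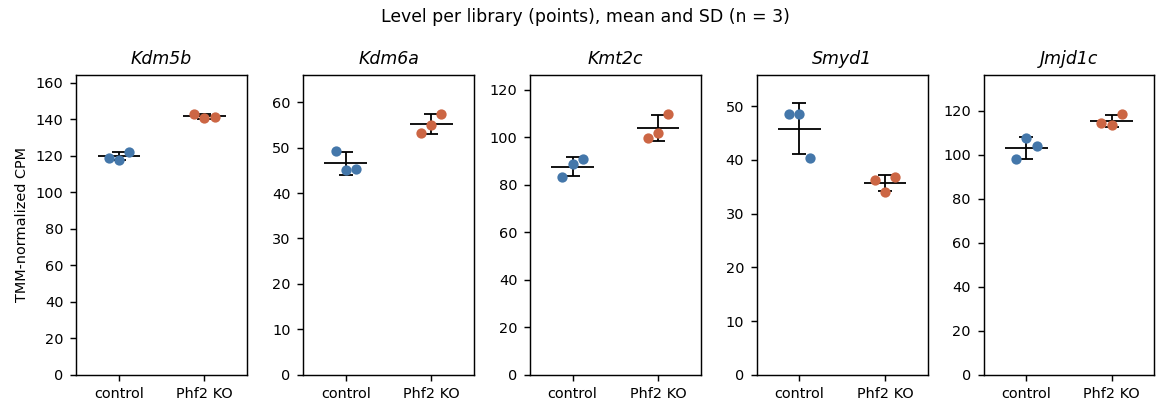
TMM-normalized CPM (y axis, from 0) of *Kdm5b*, *Kdm6a*, *Kmt2c*, *Smyd1* and *Jmjd1c* in control and *Phf2* KO libraries; points are libraries, horizontal lines the means and bars the SD of 3 libraries. In each panel the *Phf2* KO points do not overlap the control points, and they lie below them for *Smyd1* and above them for the others.

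None of the 13 enzymes grouped here under H3K9, the residue PHF2 acts on, passed the threshold in the quasi-likelihood fit or in exactTest. Of these, 4 had an unadjusted p under 0.05, as did 19.4% of all genes. LSD1 (*Kdm1a*), which the study also lists as an H3K9 demethylase, was grouped under H3K4 and did not pass (quasi-likelihood, adjusted p = 0.907). Among the 6 demethylases, *Jmjd1c* (ENSMUSG00000037876, chromosome 10, 67096125 to 67256326) was 97.9, 108 and 104 CPM in control libraries and 114, 114 and 119 CPM in *Phf2* KO libraries. The groups did not overlap, and the log2 fold change of 0.16 (SE 0.047) stood just outside the threshold (quasi-likelihood, adjusted p = 0.0556). With the replicate number as a block in edgeR the adjusted p was 0.0485, and over the other fits of the counts it ran from 0.0363 with DESeq2 to 0.0928 without a filter. In TPM the groups overlapped, at 18.8, 18.4 and 9.63 in control and 14.1, 18 and 12.8 in *Phf2* KO libraries. Its paralogs *Kdm3a* and *Kdm3b* had log2 fold changes of -0.10 and 0.01. In the KDM4 family, which acts on H3K9 and H3K36, *Kdm4a* was higher in every *Phf2* KO library, at 121 ± 5.93 and 132 ± 4.5 CPM (quasi-likelihood, adjusted p = 0.126). *Kdm4b* and *Kdm4c* had values of -0.11 and 0.04. Together the 6 demethylases summed to 178 to 194 TPM in control and 170.4 to 197 TPM in *Phf2* KO libraries, which overlapped.

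Of the 7 H3K9 methyltransferases, *Ehmt2*, which encodes G9a, was 193, 194 and 197 CPM in control and 197, 192 and 190.1 CPM in *Phf2* KO libraries. The groups overlapped, and the 95% interval was -0.10 to 0.08 on the log2 scale. *Ehmt1*, which encodes the partner of G9a, was 64.2 ± 3.7 and 71.3 ± 1.8 CPM, and *Setdb1*, whose product places H3K9me3, was 62.6 ± 0.895 and 69 ± 3.85 CPM. Both were higher in every *Phf2* KO library without passing (quasi-likelihood, adjusted p = 0.126 and 0.153). *Suv39h1* had a log2 fold change of 0.04 and *Prdm2* of -0.01. *Suv39h2*, which encodes the other SUV39 enzyme, was lower in every *Phf2* KO library, at 3.49, 3.43 and 3.52 CPM in control and 2.39, 3.07 and 3.12 CPM in *Phf2* KO libraries, without passing (quasi-likelihood, adjusted p = 0.467). *Setdb2* was 10.6 ± 1.52 and 8.99 ± 1.41 CPM, with overlapping groups. The 95% intervals of these genes, -0.69 to 0.12 and -0.54 to 0.07 on the log2 scale, were among the widest. The 7 genes summed to 217 to 225 TPM in control and 207 to 232 TPM in *Phf2* KO libraries, which overlapped.

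Polycomb repressive complex 2 methylates H3K27 through EZH1 or EZH2 and needs EED and SUZ12, and none of its 4 genes passed. *Ezh2*, known as the form of dividing cells, was 28.2, 26.2 and 28.3 CPM in control and 30.5, 29.3 and 30.2 CPM in *Phf2* KO libraries. Its groups did not overlap in CPM, and the log2 fold change was 0.12 (quasi-likelihood, adjusted p = 0.353). *Ezh1*, the form of differentiated cells, was 56 ± 2.22 and 58.6 ± 0.24 CPM. *Eed* and *Suz12* had log2 fold changes of 0.06 and 0.06. None of the 10 listed markers of dividing cells passed either, and their summed level was 188 to 196 TPM in control and 177 to 190.3 TPM in *Phf2* KO libraries.

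The remaining groups held no gene past the threshold. Among the H4K20 methyltransferases, *Kmt5a*, which places the first methyl group, was lower in every *Phf2* KO library, at 80.6 ± 3.63 and 75.4 ± 1.29 CPM (quasi-likelihood, adjusted p = 0.306). *Kmt5b* and *Kmt5c*, which add the further groups, had log2 fold changes of 0.08 and 0.10. *Dot1l*, the H3K79 methyltransferase, was 97.6 ± 4.34 and 90.9 ± 2.07 CPM (quasi-likelihood, adjusted p = 0.257). *Setd2*, the enzyme of H3K36me3, was higher in every *Phf2* KO library, at 106 ± 2.99 and 115 ± 6.5 CPM, again without passing (quasi-likelihood, adjusted p = 0.185). *Nsd1* and *Ash1l*, which place H3K36me2, had log2 fold changes of -0.02 and 0.06. Of the H3K36 demethylases, *Kdm2a* and *Kdm2b* had values of -0.003 and 0.01, and *Kdm8*, at 3.59 ± 0.204 CPM in control cells, had a 95% interval of -0.49 to 0.29. *Jmjd6*, whose product hydroxylates lysines of splicing factors, had a log2 fold change of -0.02.

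Levels between genes were compared in TPM. In control cells 42 of the 48 members had a mean above 10 TPM. *Ehmt2* was the most abundant, at 101 to 117 TPM over the 6 libraries, and *Suv39h2* the scarcest, at 1.68 to 2.86 TPM. Among the H3K9 methyltransferases, *Ehmt2* stood above *Setdb1*, *Ehmt1* and *Prdm2*, whose ranges overlapped from one to the next, and *Suv39h1*, *Setdb2* and *Suv39h2* followed without overlap. The order of the H3K4 demethylases was *Kdm1a*, *Kdm5c*, *Kdm5b*, *Kdm5a* and *Kdm1b*, with no overlap between neighbours. *Kmt2e* and *Setd7* led the H3K4 methyltransferases with overlapping ranges, and *Kmt2c*, at 9.39 to 13.5 TPM, was the lowest of the 8. *Kdm6b* stood above *Kdm6a*, at 52.9 to 55.8 against 13.2 to 20.2 TPM. *Ezh1*, at 22.3 to 34.4 TPM, stood above *Ezh2*, at 9.58 to 21.1 TPM, without overlap. *Smyd1*, at 22.3 to 31.4 TPM, lay below *Smyd2*, overlapped *Smyd5* and lay above *Smyd3*. On CPM per kb of merged exons, an alternative chosen after seeing the data, *Kdm5c* ranked above *Kdm1a*, *Prdm2* above *Setdb1* and *Ehmt1*, *Suz12* above *Ezh1*, *Kmt5c* above *Kmt5b*, *Kmt2a* above *Kmt2b* and *Smyd1* above *Smyd5*.

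**Figure D3:**
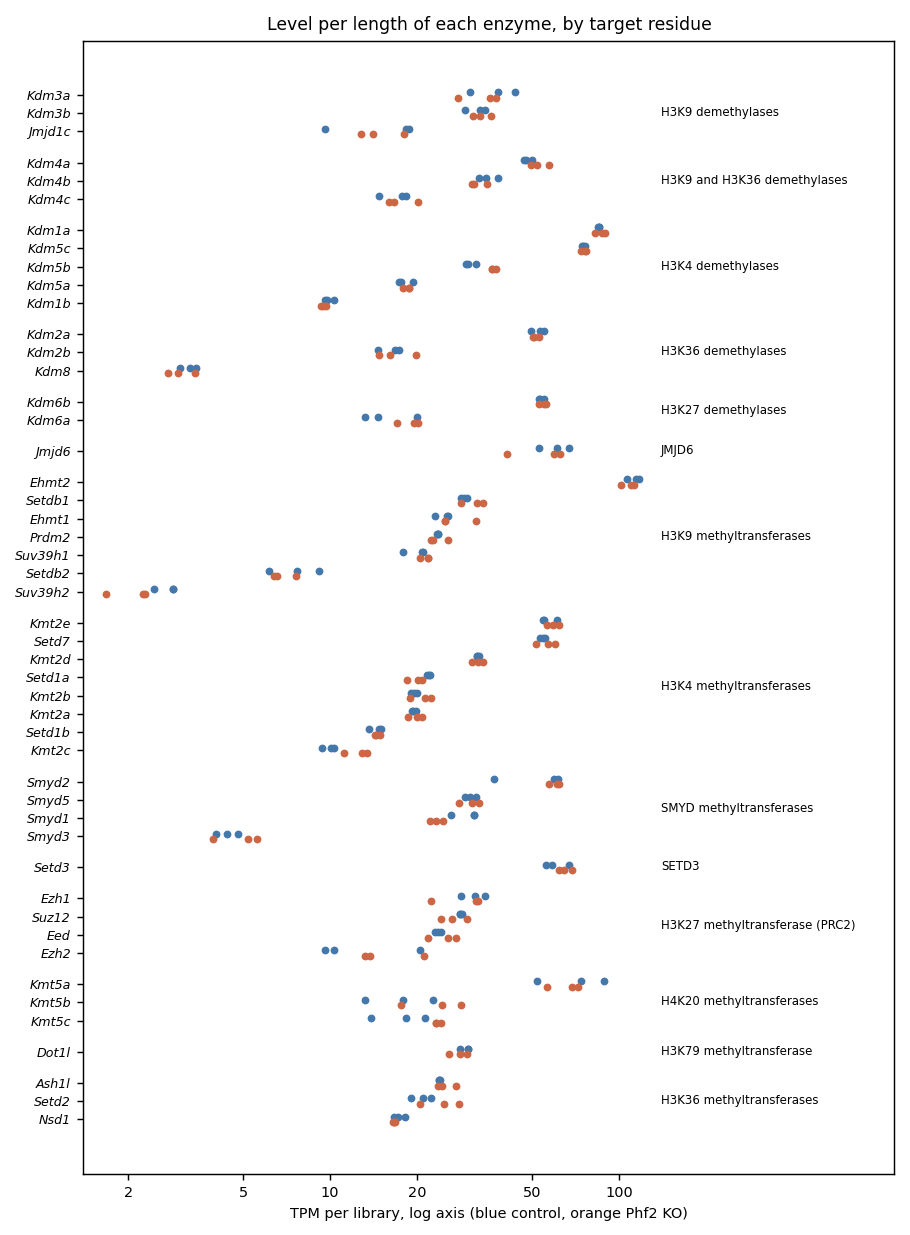
TPM of each gene in each library (x axis, log scale; blue control, orange *Phf2* KO), with genes ordered by their control mean within each group of target residues (y axis). Values run from 1.68 TPM for *Suv39h2* to 117 TPM for *Ehmt2*.

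For some members the counts and the TPM of the same libraries moved apart. Over the 6 libraries, the highest ratio of TPM to CPM was a median of 1.14 times the lowest for the members, and it exceeded 1.5 times for 7 of the 48 (14.6%, against 10.6% of the 10917 genes that averaged 5 CPM or more). *Ezh2* had the widest spread, 2.12 times, with 9.58, 10.3 and 20.4 TPM in control and 21.1, 13.2 and 13.7 TPM in *Phf2* KO libraries. *Jmjd1c* and *Kmt5b* followed at 2.08 and 1.99 times. The larger coefficient of variation within a group had a median over members of 5.25% for CPM and 8.91% for TPM, and it exceeded 20% for 0 and 8 members. For 6 members, *Jmjd1c* and *Ezh1* among them, the group means differed in opposite directions on the scales of counts and TPM.

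**Figure D4:**
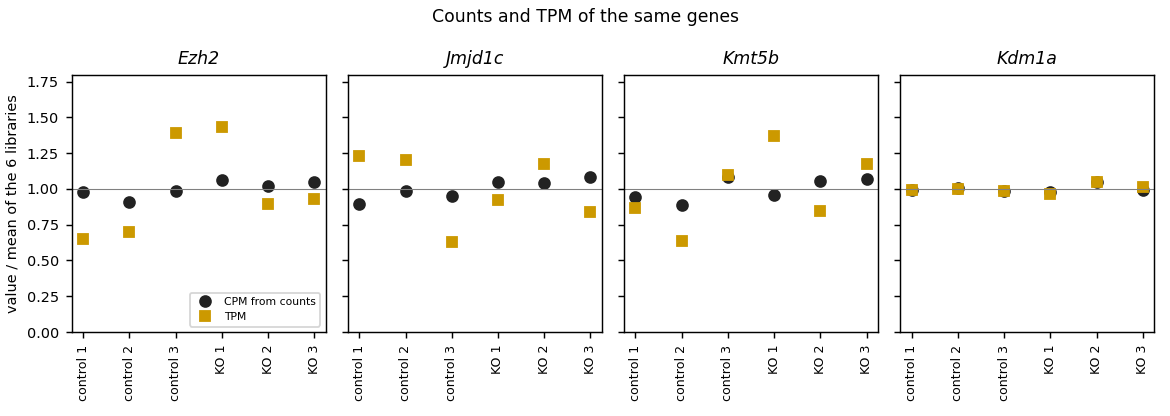
CPM from the counts (black circles) and TPM (yellow squares) of *Ezh2*, *Jmjd1c*, *Kmt5b* and *Kdm1a* in each library (x axis), each divided by its mean over the 6 libraries (y axis, from 0). The circles stay near 1 in each panel, whereas the squares spread widely for *Ezh2*, *Jmjd1c* and *Kmt5b* and follow the circles for *Kdm1a*.

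The partners of these enzymes were counted in the same fit. Of 36 subunits of their complexes, 2 passed the threshold (5.56%, against 6.48% of all genes), both higher. *Hdac1*, a histone deacetylase of the LSD1 complex, was 70, 69.5 and 69.1 CPM in control and 77.1, 80.4 and 79.3 CPM in *Phf2* KO libraries, a log2 fold change of 0.18 (quasi-likelihood, adjusted p = 0.0288). Its groups did not overlap in CPM. In TPM they overlapped, at 45.6, 71.8 and 45.3 in control and 85.6, 81.7 and 54.2 in *Phf2* KO libraries. Leaving out 1 library in edgeR, *Hdac1* passed only without *Phf2* KO replicate 1, the others giving adjusted p-values of 0.0505 (without control replicate 3) to 0.122 (without *Phf2* KO replicate 2). Of the 10 partners in the list for the LSD1 complex, 10 had a log2 fold change above 0, with a median of 0.10 against -0.001 for all genes. In this list 2 passed (20%, against 6.48% of all genes), and 4 had an unadjusted p under 0.05, against 19.4% of all genes. The list was not tested as a set. None of the 11 COMPASS partners, 8 PRC2 partners or 7 partners of the H3K9 methyltransferases passed in the quasi-likelihood fit, DESeq2 or exactTest, with 1, 1 and 0 at an unadjusted p under 0.05. Of 13 other histone lysine methylation genes, 11 were tested and 0 passed in the same tools, with 1 at an unadjusted p under 0.05. Of 9 genes for the methyl donor or the cofactors, *Ahcyl1*, a relative of the hydrolase of S-adenosylhomocysteine, passed, at 214 ± 11.1 and 251 ± 3.89 CPM (quasi-likelihood, adjusted p = 0.00898, and 0.069 without control replicate 2).

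**Figure D5:**
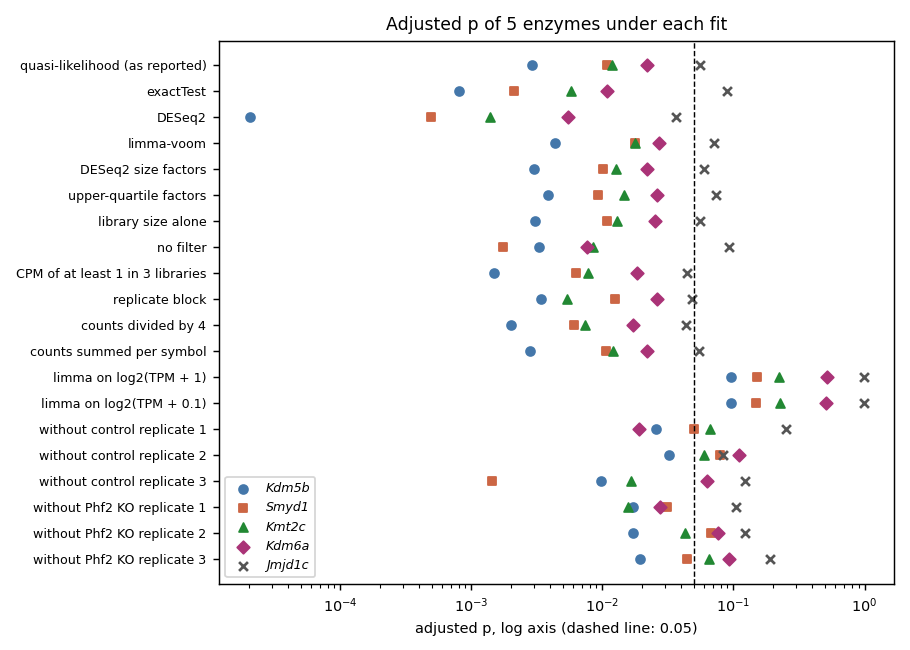
Adjusted p (x axis, log scale) of *Kdm5b*, *Smyd1*, *Kmt2c*, *Kdm6a* and *Jmjd1c* under each fit (y axis), with the threshold of 0.05 as a dashed line. Among the fits without 1 library *Kdm5b* stays left of the line and each other gene lies right of it in at least 1, and no gene passes in the limma fits of TPM.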

How the data were processed

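For 3 control and 3 *Phf2* KO libraries, grouped by their titles, alignment by the authors used HISAT2 and mm10, and StringTie gave the counts; versions, annotation and strand setting are not given in the sources used here. The deposited matrix holds estimated counts per gene, unscaled. The deposited TPM are a signal scaled within each library, whose column sums to 1976993 to 1984559 because assembled loci are listed beside the reference genes. The reference rows alone, which were used, sum to 976993 to 984559.

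Genes were kept by filterByExpr (minimum count 10), normalized by TMM and fitted with edgeR 4.0.16 (robust quasi-likelihood, R 4.3.3), with Benjamini-Hochberg adjustment over 17310 genes and a threshold of 0.05. The fit was tested on simulated counts, drawn independently for each library with no effect of the replicate number. Alternatives were exactTest, which the study used, DESeq2 1.42.0 and limma 3.58.1 (voom, or log2 of TPM with a pseudocount of 1 or 0.1). Other scalings and filters were also run, and each library was left out in turn. With exactTest 1129 genes passed here, more than the study reports at a q under 0.05, and the cause was not tested. Any member could be named, with up to 5 called genes of other lists; the 8 muscle markers were named in full after their values were seen, and 1 called partner is not reported here. Members and lists were chosen with earlier results of these data known.

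Libraries of the same replicate number deviated together from their group means (correlations of 0.25, 0.236 and 0.158 over 10923 genes, against at most -0.013 for other pairs). Deviations were centred within each group, which by itself pulls other pairs down where same-number pairs are positive. The study states no pairing, so the main fit and its p-values ignore the replicate numbers, and the block was an alternative. Exon lengths and overlaps were taken from GENCODE for GRCm38. Genes on the opposite strand overlap 30%, 24.6% and 14.6% of the exon length of *Smyd2*, *Kdm3b* and *Suv39h1*. The libraries were made with a directional kit, but the strand setting of the counting is unknown. The effect of these overlaps on the counts was not tested.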

Additional observations from a re-analysis of the deposited data

How the results depend on the processing

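*Kdm5b*, *Kdm6a*, *Kmt2c* and *Smyd1* passed in the same direction in 11 of 11 other fits of the counts with all 6 libraries at the threshold of 0.05. *Jmjd1c* joined them in 4 of these: DESeq2, a filter of CPM of at least 1 in 3 libraries, counts divided by 4, and the replicate block, which gave 5 members against 4 and changed no other call of a member or partner. With limma on TPM, 0 members and 0 partners passed at either pseudocount, while 158 and 178 genes passed in all against 1122; the cause was not tested. A threshold of 0.01 left 1 member, *Kdm5b*, and 0 partners. Leaving out each library gave 1 (without control replicate 2) to 4 members and 0 to 2 partners, while the share of all genes that passed fell to between 2.62% and 5.8% from 6.48%. Partners numbered 1 with limma-voom, DESeq2's size factors, upper-quartile factors or library size alone. The members' median log2 fold change ran from -0.001 to 0.04 without 1 library. The widest intervals were those of *Suv39h2*, *Kdm8* and *Setdb2*, which had CPM coefficients of variation of up to 14.2%, 13% and 15.6% within a group, and the parts of depth and of spread between wells in them were not tested.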
